A study of Mus musculus with 96 samples.

Results

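The cerebral cortex of Msh6-/- mice was compared with that of wild-type mice by RNA sequencing. The libraries were chosen from the labels of genotype and tissue alone, which gave 8 Msh6-/- and 8 wild-type cortex libraries, 16 of the 96 in the series. Both groups were on a C57BL/6 background, carried no Q140 allele, were dissected at 6 months of age and held 4 males and 4 females. How the Msh6 allele was made, and in which cells it is lost, is not given in the sources used here.

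Further groups serve as points of comparison. Q140 Msh6-/- mice and Q140 mice, both heterozygous for the Q140 knock-in allele of Htt (the Huntington's disease gene), share no library with the first pair and carry the same contrast of Msh6 alleles. Msh6+/- mice have a single intact allele, and their comparison uses the same 8 wild-type libraries. The striatum came from the same 8 Msh6-/- and 8 wild-type mice. Each of these groups also had 8 mice of the same age and background, with 4 of each sex. The same holds for Q140 Msh6+/- mice, which were not compared with another group. Their 8 cortex libraries entered the fit of all 48 cortex libraries, from which the spread between mice was estimated.

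MSH6 is a subunit of a complex that recognises base mismatches and small loops in newly copied DNA. The exonuclease EXO1 then removes a stretch of the new strand, and DNA polymerase delta with PCNA and the RFC clamp loader fills the gap. MSH3 belongs to a second complex, which recognises larger loops and drives CAG repeat expansion in mouse models of Huntington's disease. The study crossed Msh6 loss with Q140, and the comparison without Q140 addresses what Msh6 loss changes in a cortex with normal Htt alleles.

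The 8 Msh6-/- cortex libraries held 19.1 to 22.9 M counts (M, mega; reads assigned to genes), with a mean of 20.4 ± 1.20 M (SD), and the 8 wild-type libraries 16.7 to 21.4 M, with a mean of 19.6 ± 1.80 M. Xist counts matched the sex label in 48 of 48 cortex libraries. Markers of cortical glutamatergic neurons summed to 2657 to 2846 CPM in Msh6-/- mice and 2775 to 2952 CPM in wild-type mice, and markers of striatal projection neurons to 632 to 716 CPM in Msh6-/- mice and 617 to 716 CPM in wild-type mice. CPM is counts per mega-count, scaled by TMM factors. Within a group, every pair of mice differed by more than sampling noise, with variance ratios of 2.03 to 3.61 over the 28 Msh6-/- pairs and 2.34 to 3.91 over the 28 wild-type pairs. Animal numbers had prefixes of 14 to 33 in Msh6-/- mice and 13 to 21 in wild-type mice, with 2 prefixes in both groups, and the labels do not say what the prefix stands for.

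Few transcripts differed. Of 17622 genes tested in cortex, 23 passed an adjusted p of 0.05 (0.131%), 14 of them higher in Msh6-/- mice (0.0794%) and 9 lower (0.0511%). An unadjusted p under 0.05 was reached by 589 genes, 3.34% of those tested. The median log2 fold change over all tested genes was 6.4e-04 and the median SE was 0.0633. For 12749 genes, 72.3% of those tested, the 95% interval of the fold change lay within 1.25-fold either way. Among the 23 called genes 7 rose and 6 fell by more than 2-fold, and 13 had Msh6-/- and wild-type values that did not overlap. The 23 were selected on these same values, so the separation describes them and is no further support. The share without overlap over all tested genes was not counted. Protein-coding genes made up 15 of the 23. A naming rule selects 15 of the called genes. The 6 others with a clone or predicted name, and the low Zfp991 and Zfp992, were added after their values were seen. With the animal number prefix as a replicate block, 6 genes were higher and 4 lower, and 10 of the 23 calls were kept, among them Msh6, Nat8f2, Wwox, Znf41-ps, Rps4l and Col5a2. Under that block Prkce and Ifi203 had an adjusted p of 0.0717, Bub1b one of 0.241, Rec8 one of 0.211 and Rhoq one of 0.666. The other calls lost were Rsg1 (0.259), Oplah (0.241), Pcdha1 (0.0583), Zfp991 (0.173), Zfp992 (0.211), Gm12501 (0.643), Gm4349 (0.211) and 2410018L13Rik (0.379), and all 13 kept their directions.

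Msh6 transcript was lower in every knockout mouse but did not disappear. Msh6 (ENSMUSG00000005370, chromosome 17, 87975062 to 87990892, plus strand, GRCm38) ran from 7.65 CPM through a median of 8.94 to 10.1 CPM in Msh6-/- cortex, against 18.2, 19.3 and 20.8 CPM in wild-type cortex. The groups lay far apart, and each knockout library still held 145 to 206 reads assigned to the gene, against 335 to 407 in wild-type libraries. Means were 8.83 ± 0.787 CPM in Msh6-/- mice and 19.5 ± 0.869 CPM in wild-type mice (SD, n = 8 each), a log2 fold change of -1.14 ± 0.049 (SE, edgeR adjusted p = 2.61e-24), or 0.454 of the wild-type level. Per length, the deposited FPKM averaged 2.07 ± 0.188 in Msh6-/- mice and 4.56 ± 0.192 in wild-type mice. The gene's last bases overlap the end of Fbxo11 on the other strand, and the part of Msh6 from which the remaining reads came is not given by counts per gene.

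**Figure D1:**
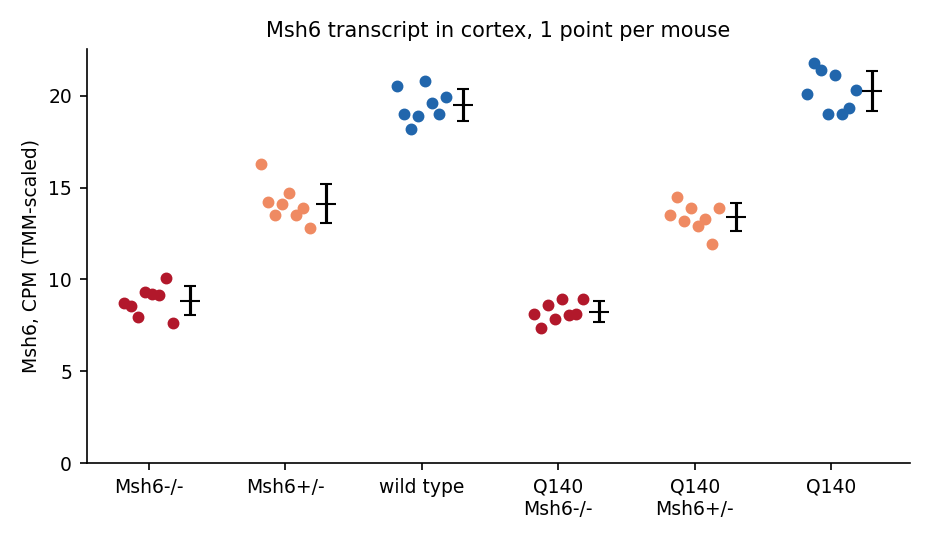
Msh6 level in CPM (vertical axis) for each cortex library, by genotype (horizontal axis); each point is a mouse, and the bar beside each group gives its mean and SD over 8 mice. Msh6-/- mice lie at 7.65 to 10.1 CPM and wild-type mice at 18.2 to 20.8 CPM, with Msh6+/- mice between them. Q140 Msh6+/- mice lie at 11.9 to 14.5 CPM.

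Msh6+/- mice had 14.1 ± 1.04 CPM of Msh6, and Q140 Msh6+/- mice had 13.4 ± 0.781 CPM. With Q140, Q140 Msh6-/- mice had 8.24 ± 0.555 CPM and Q140 mice 20.2 ± 1.10 CPM, which gave a log2 fold change of -1.29 ± 0.049 (adjusted p = 8.09e-27). Reads were thus assigned to Msh6 in every knockout mouse of both backgrounds.

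Of the 15 called genes selected by the naming rule, 6 had an entry in the set of RefSeq promoters used here. Of these, Ifi203 (over 2-fold higher, chromosome 1) is not shown. The 250 bases before the RefSeq start (GRCm38.p6) were read for the 6. Those of Msh6, the disrupted gene, are shown with those of Rhoq, its neighbour that rose, and of Nat8f2, Bub1b and Rec8, which changed more than 2-fold on other chromosomes, so that their start regions can be set side by side. Capitals mark matches to the GC box GGGCGG and the CCAAT box CCAAT on either strand (as CCGCCC and ATTGG on the opposite strand), and the TATA box TATAAA was searched in the same way.
Msh6, chr17:87974800-87975049, plus strand: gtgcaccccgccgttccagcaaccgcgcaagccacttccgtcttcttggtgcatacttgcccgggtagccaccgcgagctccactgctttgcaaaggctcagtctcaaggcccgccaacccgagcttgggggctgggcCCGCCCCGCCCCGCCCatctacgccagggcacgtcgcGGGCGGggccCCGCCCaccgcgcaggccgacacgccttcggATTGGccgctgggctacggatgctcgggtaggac
Rhoq, chr17:86962861-86963110, plus strand: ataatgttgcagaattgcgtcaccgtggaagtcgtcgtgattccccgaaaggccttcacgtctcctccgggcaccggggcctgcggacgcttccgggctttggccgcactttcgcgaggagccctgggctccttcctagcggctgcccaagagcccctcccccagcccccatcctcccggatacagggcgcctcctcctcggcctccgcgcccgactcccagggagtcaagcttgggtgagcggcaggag
Nat8f2, chr6:85869138-85869387, minus strand: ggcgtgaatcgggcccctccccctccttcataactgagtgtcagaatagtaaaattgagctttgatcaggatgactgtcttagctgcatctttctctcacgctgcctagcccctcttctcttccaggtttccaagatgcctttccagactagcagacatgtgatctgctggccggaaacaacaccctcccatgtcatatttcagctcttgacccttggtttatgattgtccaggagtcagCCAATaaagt
Bub1b, chr2:118597961-118598210, plus strand: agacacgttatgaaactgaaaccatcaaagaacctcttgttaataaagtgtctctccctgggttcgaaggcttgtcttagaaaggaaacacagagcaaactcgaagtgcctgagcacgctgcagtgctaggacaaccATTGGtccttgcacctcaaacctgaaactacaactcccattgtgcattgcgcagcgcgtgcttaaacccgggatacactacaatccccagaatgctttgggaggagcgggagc
Rec8, chr14:55617916-55618165, plus strand: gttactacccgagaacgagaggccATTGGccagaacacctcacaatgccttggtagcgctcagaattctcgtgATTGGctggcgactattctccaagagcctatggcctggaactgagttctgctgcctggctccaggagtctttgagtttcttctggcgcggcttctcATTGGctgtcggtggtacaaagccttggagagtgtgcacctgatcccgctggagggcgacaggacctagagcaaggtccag

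These start regions differed in base composition. Msh6 held 27 CpG dinucleotides, 5 GC boxes and 1 CCAAT box, and Rhoq held 22 CpG dinucleotides with no match to any of the motifs. Nat8f2 was CpG-poor, with 4 CpG dinucleotides and 1 CCAAT box. Bub1b had 9 and Rec8 had 10 CpG dinucleotides, with 1 and 3 CCAAT boxes. Ifi203, not shown, had 2 entries with 1 and 2 CpG dinucleotides and no match to any of the motifs. Over 32851 RefSeq windows of the same length the median was 6.00 CpG dinucleotides, and 12.4% held a TATA box, 33.8% a CCAAT box and 32.7% a GC box. A match describes letters in the window and is not a binding site.

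No other mismatch repair gene passed the test. Of 24 genes of the pathway, all tested, Msh6 alone was called, lower, and at an unadjusted p under 0.05 there were 3 others, all higher, Pold1 and Pold3 among them. Pold1 and Pold3, the catalytic and an accessory subunit of DNA polymerase delta, gave 0.18 ± 0.071 and 0.13 ± 0.044 (adjusted p = 1.000 and 0.875), and with Q140 0.016 and -0.029.

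Msh3 averaged 20.2 ± 0.870 CPM in Msh6-/- mice and 20.3 ± 1.61 CPM in wild-type mice, a log2 fold change of -4.1e-04 with a 95% interval of -0.11 to 0.11. Fan1, a nuclease that limits repeat expansion, gave 0.088 (-0.032 to 0.21). The list's median log2 fold change was 0.038, beside 6.4e-04 over all genes. Intervals lay within 1.25-fold for 20 of the 24, beside 72.3% of all genes tested. Htt itself, the gene that carries Q140 in the crossed mice, gave 2.7e-04 (-0.063 to 0.064).

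**Figure D2:**
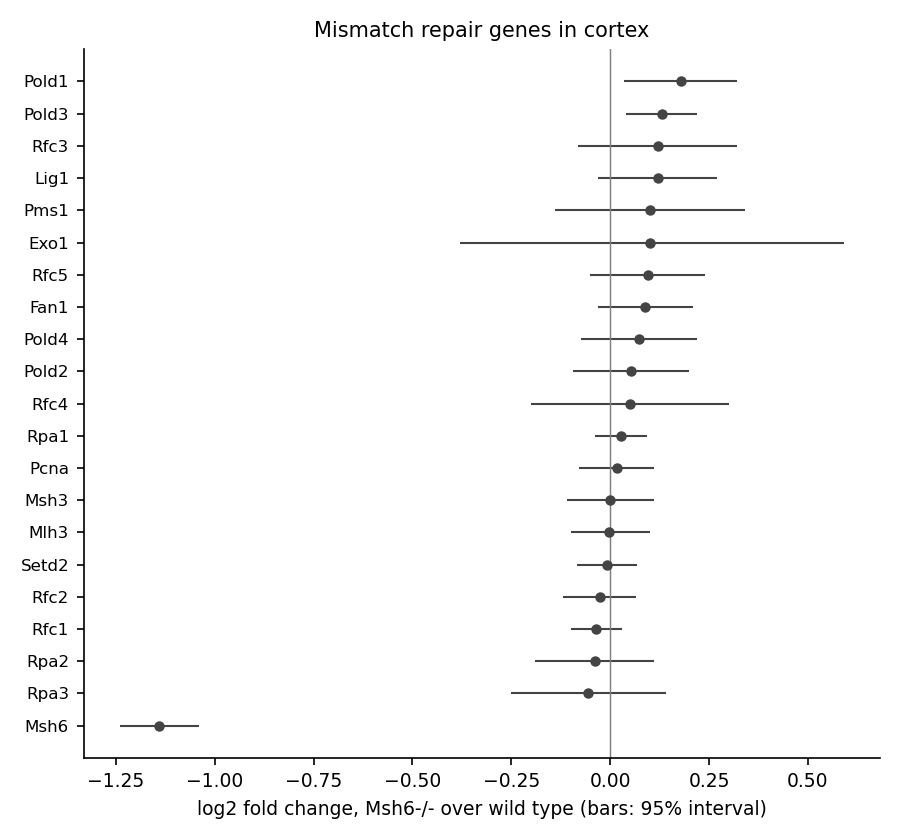
Log2 fold change of Msh6-/- over wild-type cortex (horizontal axis) for 21 of the 24 mismatch repair genes (vertical axis); points are estimates and bars 95% intervals, from 8 mice per group. Msh6 stands at -1.14, and the other genes shown lie between -0.056 and 0.18.

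Genes flanking Msh6 on chromosome 17 differed in both directions. Besides Msh6, 3 of the 38 tested genes within 5 Mb were called, 2 lower and 1 higher, against 19 of 16817 on other chromosomes. Prkce, the protein kinase C epsilon gene (86167785 to 86657919, plus strand, 1.32 Mb to the lower side), ran from 384 through 396 to 435 CPM in Msh6-/- mice and from 424 through 468 to 495 CPM in wild-type mice. All but 1 knockout mouse lay below the lowest wild-type mouse, with a log2 fold change of -0.21 ± 0.033 (adjusted p = 1.30e-04).

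Rhoq, a small GTPase known as TC10 that acts in insulin-stimulated glucose uptake (86963082 to 87000069, plus strand, 0.975 Mb to the lower side), went the other way. It had 39.4, 41.6 and 43.3 CPM (lowest, median and highest) in Msh6-/- mice, against 31.8, 35.0 and 42.4 CPM in wild-type mice. The ranges overlapped through a single wild-type mouse at 42.4 CPM, the next being 36.5 CPM, and the log2 fold change was 0.21 ± 0.040 (adjusted p = 0.00245). Rhoq shares bases with Pigf on the opposite strand and with a clone-named gene on its own strand, so its counts are uncertain. Prkce spans predicted or clone-named genes on both strands.

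The genes listed next lie near Msh6 and were not called, though Gm10184 (1.92 Mb away) lies farther off than Rhoq and Prkce. Fbxo11, whose end overlaps Msh6, gave a log2 fold change of -0.026 ± 0.028, Kcnk12 (0.177 Mb away) 0.035 ± 0.067, Foxn2 -0.024 ± 0.061, Calm2 -0.032 ± 0.035, Ppp1r21 0.029 ± 0.028, Ston1 0.006 ± 0.12, 4833418N02Rik -0.12 ± 0.14 and Gm10184 0.040 ± 0.13. Ttc7, a tetratricopeptide repeat gene 0.593 Mb away, had 8.78 to 12.3 CPM in Msh6-/- mice and 9.91 to 16.0 CPM in wild-type mice (-0.30 ± 0.079, adjusted p = 0.228). With Q140 it passed the test, at 10.1 ± 0.986 CPM in Q140 Msh6-/- mice and 12.9 ± 1.38 CPM in Q140 mice (-0.35 ± 0.079, adjusted p = 0.0323).

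By distance, 4 of 15 genes within 1 Mb, 2 of 23 at 1 to 5 Mb and 6 of 39 at 5 to 10 Mb had an unadjusted p under 0.05 (26.7%, 8.70% and 15.4%). At 10 to 20 Mb this held for 0 of 42 genes, where edgeR called 0, and beyond 20 Mb for 25 of 680 (3.68%). On other chromosomes the share was 3.28%.

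**Figure D3:**
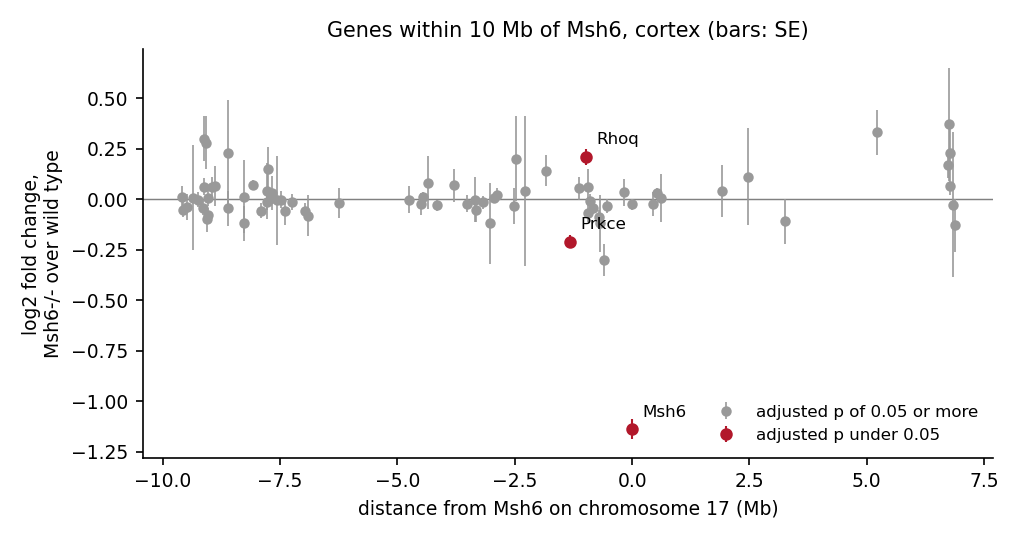
Log2 fold change of Msh6-/- over wild-type cortex (vertical axis) against distance from Msh6 in Mb (horizontal axis; negative on the lower-coordinate side) for most of the tested genes within 10 Mb; bars are SE and red points have an adjusted p under 0.05. Prkce (-0.21) is lower and Rhoq (0.21) is higher.

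Away from chromosome 17, Nat8f2 had the largest change. Nat8f2 belongs to the Nat8 family of N-acetyltransferases (chromosome 6, 85865422 to 85869158, minus strand). It ran from 3.49 through 4.57 to 5.31 CPM in Msh6-/- mice, against 0.0468, 0.173 and 0.645 CPM in wild-type mice. Each knockout library held 69 to 106 reads and each wild-type library 1 to 13, so the groups were wide apart, and the log2 fold change was 4.30 ± 0.25 (adjusted p = 7.89e-19), 19.7-fold. Per length this was 1.36 FPKM in Msh6-/- mice and 0.0655 FPKM in wild-type mice. Q140 Msh6-/- mice had 4.42 ± 0.633 CPM and Q140 mice 0.319 ± 0.178 CPM. Of the other 6 family members tested, Nat8f4 and Nat8f3 had an unadjusted p under 0.05, at 0.33 ± 0.091 and 0.43 ± 0.15 (adjusted p = 0.311 and 0.882), and none was called. The brain aspartate N-acetyltransferase Nat8l gave 0.010 ± 0.031, and the family's median was 0.22.

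Wwox, a WW-domain oxidoreductase and tumour suppressor whose loss in humans causes an epileptic encephalopathy (chromosome 8, 114439655 to 115352708, plus strand), was the called gene of smallest adjusted p after Msh6 and Nat8f2. It had 23.1, 27.9 and 33.5 CPM in Msh6-/- cortex, against 16.6, 18.7 and 20.8 CPM in wild-type cortex. The groups did not overlap, and the log2 fold change was 0.59 ± 0.055 (adjusted p = 9.32e-11). In striatum of the same mice Wwox had 12.5 ± 0.825 CPM in Msh6-/- mice and 11.9 ± 1.32 CPM in wild-type mice, a log2 fold change of 0.070 ± 0.054 (adjusted p = 0.891). The cortical change exceeded the striatal change by 0.52 ± 0.079 (adjusted p = 4.25e-05), and with the animal as a replicate block by 0.52 ± 0.073 (adjusted p = 6.13e-05). Predicted genes overlap Wwox on the opposite strand.

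Bub1b rose and Rec8 fell. Bub1b encodes the spindle checkpoint kinase BubR1 (chromosome 2, 118598211 to 118641591, plus strand). It ran from 4.99 through 6.96 to 7.93 CPM in Msh6-/- mice, against 0.847, 2.29 and 4.77 CPM in wild-type mice. The ranges met closely without overlapping, and wild-type mice were the more variable (mean 6.82 ± 0.916 CPM in Msh6-/- mice and 2.56 ± 1.57 CPM in wild-type mice, log2 fold change 1.38 ± 0.23, adjusted p = 5.17e-04). None of the 13 cell cycle genes tested was called, and their median log2 fold change was -0.024. At an unadjusted p under 0.05 there were 0 of the 13.

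Rec8 encodes a cohesin subunit of meiosis (chromosome 14, 55618037 to 55625395, plus strand). It ran from 0.999 through 1.72 to 3.14 CPM in Msh6-/- mice, against 3.47, 4.10 and 5.32 CPM in wild-type mice, without overlap (log2 fold change -1.12 ± 0.20, adjusted p = 0.00106). The 4 knockout males, at 0.999 to 1.51 CPM, lay below the 4 knockout females, at 1.92 to 3.14 CPM. The log2 fold change was -1.78 in males and -0.63 in females, a difference with an unadjusted p of 9.51e-04 that did not pass adjustment (adjusted p = 1.000).

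Ifi203, an interferon-inducible gene of the Ifi200 cluster (chromosome 1, 173920407 to 173942672, minus strand), ran from 2.22 through 3.25 to 4.16 CPM in Msh6-/- mice, against 0.772, 1.45 and 2.34 CPM in wild-type mice. All but 1 knockout mouse exceeded the highest wild-type mouse (log2 fold change 1.10 ± 0.19, adjusted p = 5.17e-04). Ifi203 shares sequence span and strand with Mndal, so their counts are uncertain. Mndal, of the same cluster, gave 0.78 ± 0.19 (adjusted p = 0.103), and Aim2, the DNA sensor beside them, -0.21 ± 0.16. Of the 18 tested genes of the general interferon response none was called and 0 had an unadjusted p under 0.05, with a median of -0.022. Their intervals were wide, with 6 of the 18 within 1.25-fold, beside 72.3% of all genes tested.

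The remaining named genes that rose were Pcdha1, Col5a2, Rsg1 and Oplah. Col5a2, a fibrillar collagen chain (chromosome 1, 45374321 to 45503282, minus strand), ran from 3.29 through 5.86 to 7.56 CPM in Msh6-/- mice, against 1.92, 2.93 and 3.24 CPM in wild-type mice (0.97 ± 0.21, adjusted p = 0.0184). These ranges were separate, but the call was lost with the prefix as a numeric covariate (0.82, adjusted p = 0.448) and with limma on the FPKM values (adjusted p = 0.0697 to 0.182). Oplah, the 5-oxoprolinase of the glutathione cycle (chromosome 15, 76296601 to 76328015, minus strand), ran from 30.7 through 33.7 to 35.3 CPM in Msh6-/- mice and from 24.9 through 27.5 to 30.7 CPM in wild-type mice (0.28 ± 0.053, adjusted p = 0.00300; 0.241 with the prefix block), again without overlap. Rsg1, a small GTPase of cilium formation (chromosome 4, 141213956 to 141226756, plus strand), ran from 2.16 through 2.77 to 3.53 CPM in Msh6-/- mice and from 1.42 through 1.68 to 2.32 CPM in wild-type mice (0.67 ± 0.12, adjusted p = 0.00107; 0.259 with the prefix block), and 6 of 8 knockout mice exceeded every wild-type mouse. Oplah overlaps Smpd5 and Exosc4 on the opposite strand, and Col5a2 overlaps a predicted gene on its own strand.

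Pcdha1 is the first variable exon gene of the clustered protocadherin alpha locus, which gives neurons their surface identity (chromosome 18, 36930184 to 37187661, plus strand). It ran from 2.19 through 3.32 to 9.77 CPM in Msh6-/- mice, against 1.25, 1.70 and 2.20 CPM in wild-type mice. A single knockout female, 14-3, held the 9.77 CPM, and the next mouse had 3.83 CPM. The log2 fold change was 1.19 ± 0.21 (adjusted p = 0.00143), and without that mouse 0.85 (adjusted p = 0.00917). With the prefix block it was 1.01 (adjusted p = 0.0583). Its annotated span holds the other alpha protocadherins, which share its last exons, so its counts are uncertain.

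Of genes that fell, 3 lie within one stretch of chromosome 4 that also holds Rsg1. Its ends were set by called genes, so the 4 of 50 tested genes called over its 5.97 Mb cannot measure clustering. The share called over all genes was 0.131%. The pseudogene Znf41-ps (145825237 to 145829942) had 0.317, 0.572 and 1.49 CPM in Msh6-/- mice, against 1.09, 1.50 and 2.37 CPM in wild-type mice (-1.21 ± 0.23, adjusted p = 0.00285). The zinc finger genes Zfp991 and Zfp992 averaged 0.509 and 0.197 CPM in Msh6-/- mice, against 1.20 and 0.551 CPM in wild-type mice (-1.22 ± 0.21 and -1.44 ± 0.31, adjusted p = 5.17e-04 and 0.0195), and with the prefix block both calls were lost. Zinc finger genes of such arrays have close copies, so their counts are uncertain. The Zfp992 call was lost without Msh6-/- mouse 29-2 (-1.36, adjusted p = 0.0696). Rps4l, a processed pseudogene within Tmtc1 (chromosome 6, 148354656 to 148355598), had 1.61 to 3.75 CPM in Msh6-/- mice and 3.93 to 7.44 CPM in wild-type mice (-0.93 ± 0.18, adjusted p = 0.00407).

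The clone-named and predicted genes were 1700030C10Rik (2 overlapping gene identifiers on chromosome 12, log2 fold changes 2.70 and 2.28), Gm12501 (1.04), Gm4349 (0.89) and Gm21811 (0.33), all higher, and 2410018L13Rik (-1.10). The 1700030C10Rik identifiers and 2410018L13Rik lay within 2.21 Mb, in which 3 of 17 tested genes were called. The ends of that stretch were also set by called genes, and 2 of the 3 calls are the overlapping identifiers. The 1700030C10Rik entry with the larger span had 2.78 to 8.68 CPM in Msh6-/- mice and 0.608 to 2.48 CPM in wild-type mice, and its overlap with the other identifier on the same strand makes both uncertain.

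**Figure D4:**
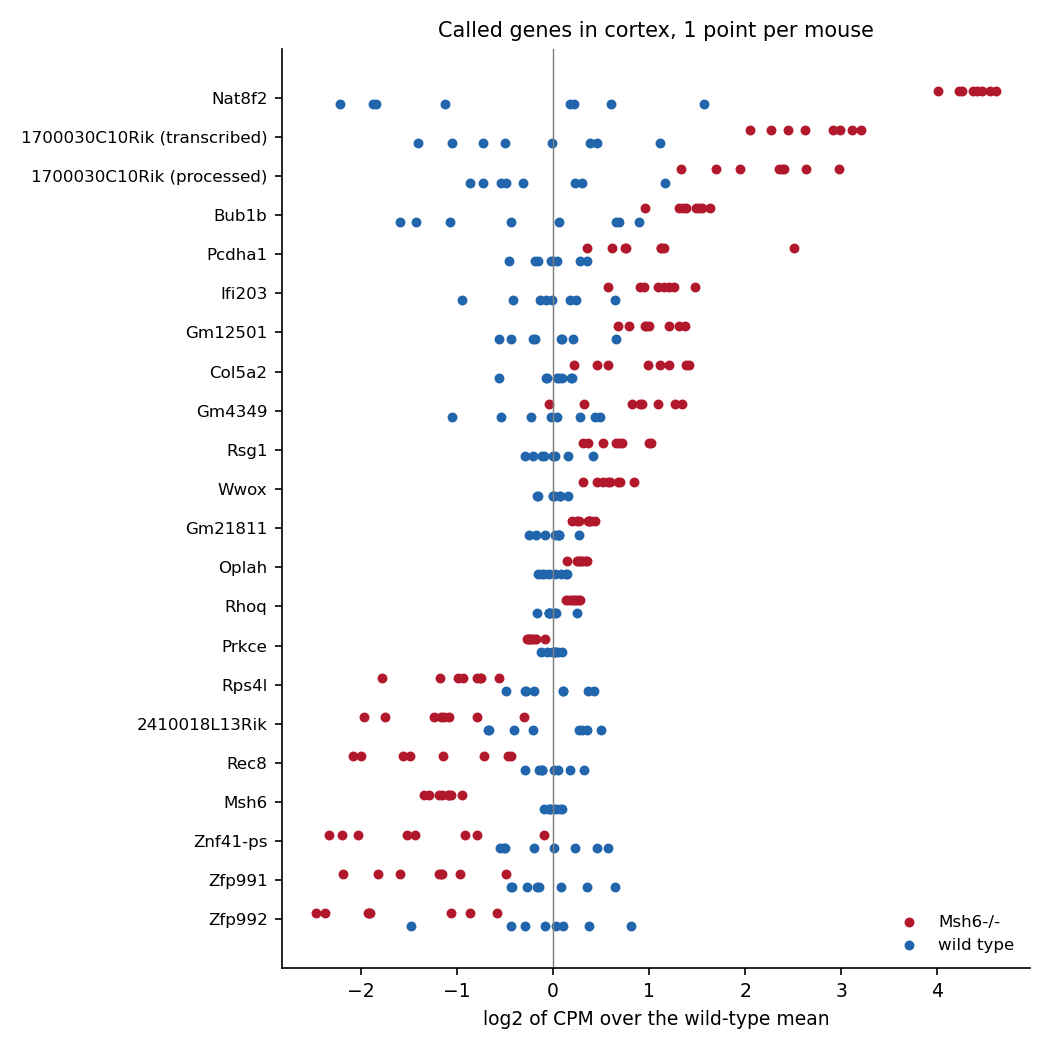
The called genes (22 of the 23; vertical axis), with the log2 of each mouse's CPM over the wild-type mean (horizontal axis); each point is a mouse, Msh6-/- in red above wild type in blue, 8 mice per group. For the 1700030C10Rik identifiers the bracket gives the annotated gene type. Nat8f2 stands apart at the top, and Pcdha1 has 1 knockout mouse far from the rest.

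The same contrast in other mice gave like changes for the called genes. In Q140 Msh6-/- against Q140 cortex, which shares no library with the comparison above, all 23 genes had the same direction and 18 of them passed the test. There 27 of 17622 genes were called (0.153%), so the shared genes were 78.3% of the 23 and 66.7% of the 27. Msh6 is among them by genotype. Without it, 22 of 22 genes had the same direction and 17 passed. The share of all tested genes with the same direction was not counted. Wwox had 27.0 ± 1.00 CPM in Q140 Msh6-/- mice and 18.4 ± 1.15 CPM in Q140 mice. Bub1b had 6.73 ± 1.31 CPM in Q140 Msh6-/- mice and 2.82 ± 0.936 CPM in Q140 mice. The 5 that did not pass with Q140 were Ifi203 (0.73, adjusted p = 0.0884), Rec8 (-0.50, adjusted p = 0.633), Gm12501 (0.58), Gm4349 (0.45) and Gm21811 (0.18).

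In Rec8, Q140 Msh6-/- mice had 2.52 ± 0.768 CPM and Q140 mice 3.58 ± 1.19 CPM. The log2 fold change with Q140 minus that without was 0.62 for Rec8, with an unadjusted p of 0.0299. No gene passed the test of that difference, with 0 of 17622 called (0%) by edgeR, 692 at an unadjusted p under 0.05, and 0 called by DESeq2. Over all 17622 genes the log2 fold changes of the comparisons had a Pearson r of 0.231, across genes, which are not independent replicates. Genes called with Q140 alone included Adam33 (-0.47 in Q140 Msh6-/- against Q140 mice, -0.013 in Msh6-/- against wild-type mice), Rnf17 (-1.72 with Q140 and -0.87 without), Eps8l1 (1.15 with Q140 and 0.72 without), Mndal (0.91 with Q140 and 0.78 without), Trem2 (-0.27 with Q140 and -0.13 without) and Ttc7.

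In striatum of the same Msh6-/- and wild-type mice 17 of 17503 genes were called (0.0971%). All 22 of the called cortical genes that could be tested there had the same direction and 11 passed, 47.8% of the 23 and 64.7% of the 17. Without Msh6, 21 of 21 had the same direction and 10 passed. Nat8f2 had 6.83 ± 0.944 CPM in Msh6-/- striatum and 0.397 ± 0.149 CPM in wild-type striatum. Wwox was the gene for which the tissue difference passed the test, 1 of 18440 (0.00542%). With the animal as a replicate block Ttc7 passed too, at -0.41 ± 0.074 (adjusted p = 0.00926), with 19.8 ± 1.59 CPM in Msh6-/- striatum and 18.4 ± 2.33 CPM in wild-type striatum. Both tissues come from the same animals, so they are not independent sets of mice.

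**Figure D5:**
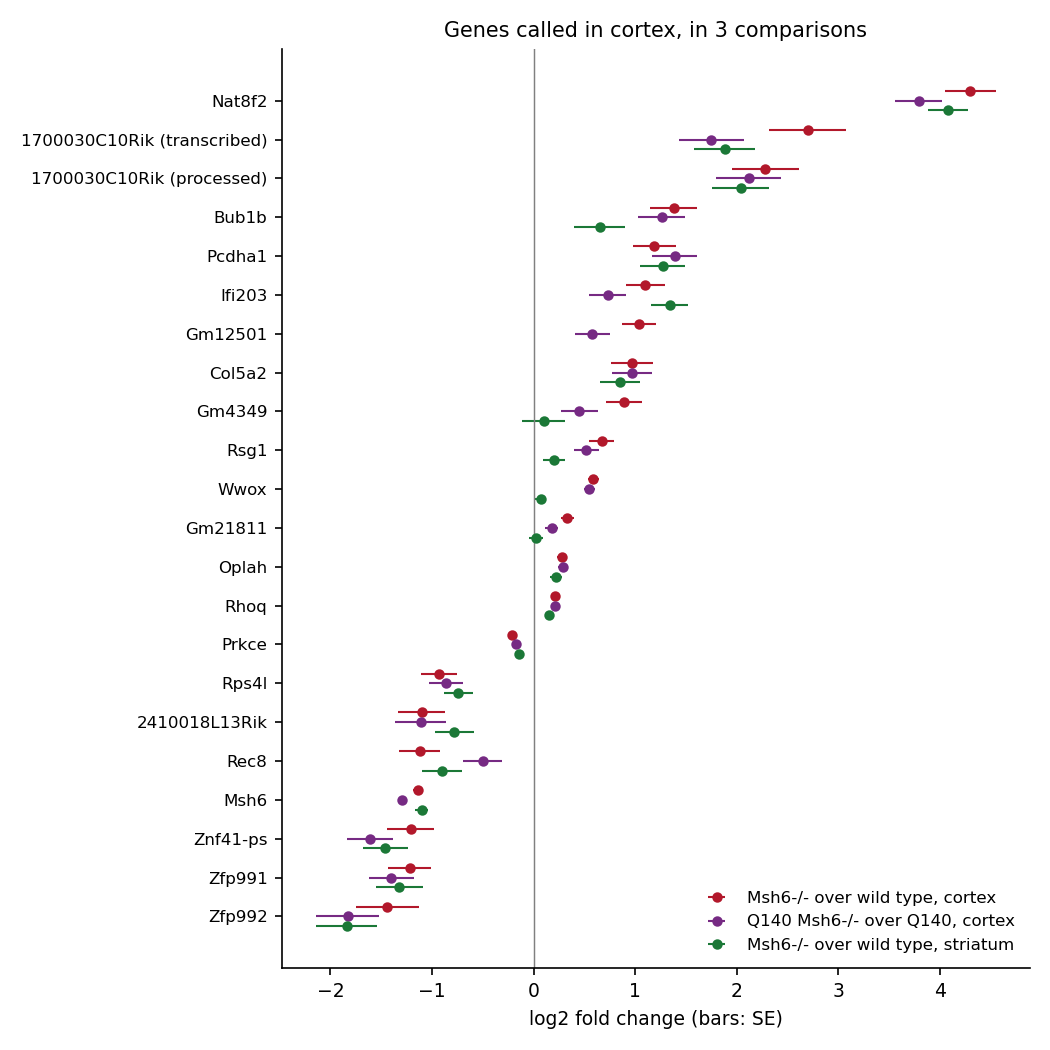
Log2 fold changes with SE (horizontal axis) of 22 of the 23 called genes (vertical axis) in Msh6-/- over wild-type cortex, Q140 Msh6-/- over Q140 cortex and Msh6-/- over wild-type striatum, 8 mice per group. Wwox lies at 0.59, 0.55 and 0.070 in the 3 comparisons, and Gm12501 was not tested in striatum.

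In Msh6+/- mice, which are compared with the same wild-type libraries, 1 of 17622 genes was called (0.00567%), Msh6 itself, with a log2 fold change of -0.46 ± 0.047. Nat8f2 had 4.51 ± 0.592 CPM in Msh6-/- mice, 0.420 ± 0.258 CPM in Msh6+/- mice and 0.218 ± 0.204 CPM in wild-type mice. Rhoq had 41.4 ± 1.41 CPM in Msh6-/- mice, 35.9 ± 2.18 CPM in Msh6+/- mice and 35.8 ± 3.03 CPM in wild-type mice. All 22 other genes called in Msh6-/- mice had the same direction in Msh6+/- mice, and 0 of them were called there. Their median ratio of log2 fold changes, Msh6+/- over Msh6-/-, was 0.326. Both comparisons use the same wild-type libraries, which can move them in the same direction, so this count is not independent of the first comparison.

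A contrast of the males called 7 genes and a contrast of the females 6, with 4 mice a group. No gene passed the test of a sex difference in the effect of Msh6 loss: 0 of 17622 (0%) by edgeR, with 549 at an unadjusted p under 0.05 and 0 by DESeq2.

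Cell type markers and stress pathways gave no calls in Msh6-/- against wild-type cortex. None of the 12 lists of cell type markers held a gene called in that comparison. Microglial markers had a median log2 fold change of -0.074, with 3 of 12 lower at an unadjusted p under 0.05, C1qa and Trem2 among them (Trem2 passed the test in Q140 Msh6-/- against Q140 cortex, -0.27, adjusted p = 0.0412), and summed to 317 to 364 CPM in Msh6-/- mice and 344 to 392 CPM in wild-type mice. In bulk tissue, fewer cells of a type and less RNA per cell cannot be told apart. The median log2 fold change was -0.030 for cortical glutamatergic neurons, -0.020 for interneurons, -0.068 for striatal projection neurons, 0.060 for thalamic and septal neurons, 0.017 for astrocytes, 0.047 for oligodendrocytes and 0.037 for their precursors. It was -0.022 for endothelium, 0.009 for pericytes and fibroblasts and -0.15 for choroid plexus and ependyma, beside 6.4e-04 over all genes. Blood genes were variable between mice. Their 4 tested members, all globins, were each higher in Msh6-/- mice at an unadjusted p under 0.05. Their median log2 fold change was 2.08 and their smallest adjusted p was 0.792. They summed to 0.131 to 50.5 CPM (median 4.07) in Msh6-/- mice and 0.0605 to 11.5 CPM (median 0.521) in wild-type mice. Their part in the called genes was not tested, and without the mouse of highest globin counts, 29-2, 22 of the 23 calls were kept.

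Genes of DNA damage responses were also uncalled. Among 17 tested p53 targets and damage genes the median was -0.033, and Gadd45g, a growth arrest gene, came nearest to the threshold, with 5.38 ± 1.16 CPM in Msh6-/- mice and 7.06 ± 1.09 CPM in wild-type mice (-0.39 ± 0.094, adjusted p = 0.0759). With Q140 it gave -0.060 (adjusted p = 0.934). The cell cycle inhibitor Cdkn1a gave -0.18 ± 0.19 and Mdm2 -0.001 ± 0.045. Intervals lay within 1.25-fold for 11 of the 17. Of 26 base excision and strand break repair genes 22 had intervals within 1.25-fold, as did all 16 synaptic vesicle genes, all 18 oxidative phosphorylation genes, all 19 cholesterol synthesis genes and all 14 glutamate receptor genes. Of 14 chaperone genes 13 did, with Bag3 highest at 0.12. Immediate early genes had wide intervals (3 of 15 within 1.25-fold) and a median of -0.10. Over all tested genes 72.3% had intervals within 1.25-fold, and the lists were not matched for expression level. Besides Gadd45g, the genes just outside the threshold were Bglap3 (0.72, adjusted p = 0.0556), Vsir (-0.21, adjusted p = 0.0583) and Slc29a3 (-0.18, adjusted p = 0.0755).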

How the data were processed

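RNA was measured in cortex and striatum of 48 mice (96 libraries; Qiagen RNeasy extraction and Illumina TruSeq stranded libraries, per the labels' protocols). Per the submitters' processing notes, reads were handled with STAR 2.7.5c, SAMtools 1.10 and HTSeq 0.12.3 on GRCm38 (mm10); the strand setting of the counting is not given in the sources used here. The authors deposited a table of integer read counts per gene and a table of FPKM values, both for 48795 genes. Positions come from GENCODE M21 (GRCm38), which held 48349 of the identifiers, all on the deposited chromosome. Replicates are separate mice.

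Counts of the 48 cortex libraries were fitted with edgeR 4.0.16 (R 4.3.3) quasi-likelihood, TMM scaling, a term per genotype and sex; filterByExpr kept genes with a count of 10 in about a group's number of libraries and a total of 15. The striatum had its own fit, and the tissue difference a fit of all 96 libraries. Adjusted p is Benjamini-Hochberg over all tested genes, threshold 0.05; ± is SE for log2 fold changes and SD for CPM. Alternatives used RLE scaling, no filter, no sex term, animal number prefixes, the 16 libraries alone, single sexes, left-out mice, DESeq2 1.42.0 and limma 3.58.1 on log2(FPKM + 0.1 or 1).

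Cortex and striatum were paired by animal number. Over 16806 genes the median r between residuals of an animal's tissues was 0.145 (-0.0395 to 0.261), against -0.00382 for other animals, and in 39 of 48 animals the best match was the other tissue of that animal.

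Named are Msh6, Htt and Msh3, called genes whose mean log2 CPM is 0 or more (up to 15 rises and 15 falls), the 5 nearest tested genes on each side of Msh6, called genes within 5 Mb and called list members; some genes that the rule or the lists select are not reported here. The comparison, the rule and the 25 lists (360 genes) were chosen with earlier results of these data known. The lists are mismatch repair, base excision and strand break repair, p53 targets, interferon response, Ifi200, Nat8, immediate early, cell types, oxidative phosphorylation, cholesterol synthesis, chaperones, synaptic vesicle, glutamate receptors and cell cycle. The edgeR fit of Msh6-/- against wild-type cortex was tested on simulated counts, and the other fits were not. The simulated mice were independent and had no animal number prefixes, so that test does not bear on the calls lost under the prefix block.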

Additional observations from a re-analysis of the deposited data

Results flagged for a closer look

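Of 80 sets of 8 values checked in Msh6-/- and wild-type cortex (the named genes' CPM, marker sums and total counts), 7 held a mouse whose gap to the next exceeded the 95% limit of Dixon's test for 8 mice. For independent, normally distributed values chance alone would flag about 1 set in 20. These sets come from the same mice and include skewed values such as the blood marker sums, so the 7 cannot be judged against that rate.

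Pcdha1 was at 9.77 CPM in Msh6-/- mouse 14-3, against 3.83 CPM in the next. The same mouse had the highest total count of its group, 22.9 M against 20.9 M. Col5a2 was lowest in wild-type mouse 20-2, at 1.92 CPM, the next mouse having 2.69 CPM. Rhoq was highest in wild-type mouse 16-2, at 42.4 CPM, the next mouse having 36.5 CPM. The summed blood markers stood at 50.5 CPM in Msh6-/- mouse 29-2, against 16.1 CPM in the next, and at 11.5 CPM in wild-type mouse 18-1, against 3.45 CPM in the next. 1700030C10Rik was also highest in wild-type mouse 18-1, at 2.48 CPM, the next mouse having 1.36 CPM.

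Wwox differed between tissues in its response to Msh6 loss: the log2 fold change in cortex exceeded that in striatum by 0.52 (adjusted p = 4.25e-05, test of the difference).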

How the results depend on the processing

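The 14 higher and 9 lower calls became 14 and 9 with RLE scaling or no sex term, 18 and 10 without the filter, 17 and 11 with DESeq2 (all 23 genes kept), 13 and 7 with limma on FPKM plus 0.1 or 1 (14 and 7 unfiltered; Col5a2 and 2410018L13Rik lost in each, and Zfp992 when unfiltered), 15 and 12 at an adjusted p of 0.1, and 13 and 8 with the 16 libraries alone, where Pcdha1 (adjusted p = 0.0608) and Gm4349 lost their calls. With the animal number prefix as a covariate they were 14 and 7, and Zfp992, Col5a2 and 2410018L13Rik were lost. With the prefix as a replicate block they were 6 higher and 4 lower, with 10 of the 23 genes kept; only 2 prefixes occur in both groups. Males alone gave 4 and 3 and females alone 5 and 1, from 4 mice a group. Without Msh6-/- mouse 14-3, Msh6-/- mouse 29-2 or wild-type mouse 18-1 (chosen after seeing the data) there were 14 to 15 higher and 8 to 12 lower calls. No called gene changed direction under any of these, and 18 of the 23 kept their call under all but the block and the single sexes. DESeq2 called 17 lower genes in striatum, against 9 by edgeR, and the animal block gave 1 lower gene for the tissue difference, against 0. The cause was not tested.

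Signs turned in uncalled genes alone. Msh3 gave 0.054 in males, -0.021 to 0.002 without a mouse and 4.7e-04 with FPKM plus 0.1, filtered or not. Htt gave -8.6e-04 with RLE, -0.006 with the prefix block, -5.3e-04 with 16 libraries, -0.012 in females, -0.008 to -0.003 without mouse 14-3, 29-2 or 18-1, and -9.3e-04 with DESeq2. Kcnk12 gave -0.028 (covariate), -0.034 (block) and -0.084 (females). Calm2 gave 0.003 (block) and 4833418N02Rik 0.028 (females). Foxn2 gave 0.003 (covariate) and 0.015 (females). Ston1 gave -0.042 (covariate), -0.041 (females) and -0.006 to 0.046 (without a mouse). Gm10184 gave -0.036 (males).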
